A study of Mus musculus with 8 samples.

Results

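The late-life step of cardiac fibroblasts was examined by comparing mouse cells taken at 24 months of age with cells taken at 12 months. Every gene on an autosome that was expressed well enough to be tested entered the comparison, which gave 15895 genes of the 52442 autosomal genes in the deposited count table. Genes on the X and Y chromosomes and on the mitochondrial genome were kept apart, because the libraries of these ages differed in sex-linked transcripts.

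The cells were primary, wild-type (WT) cardiac fibroblasts isolated from hearts and grown in culture for 3 days before RNA was harvested. The series holds 8 RNA-seq libraries, 2 from each of 4 ages: neonatal mice (P1-P3), and mice of 3, 12 and 24 months. All groups share the genotype and the culture period, so every value describes cells after growth on plastic and not cells read directly from the heart. The labels name no strain and do not say whether the 2 libraries of an age came from separate animals or cultures. The p-values therefore measure the spread between these libraries, which may be technical.

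The libraries held 17283764 and 19940912 counts at 12 months and 21700917 and 21555853 counts at 24 months. Gene counts differed by a chi-square per degree of freedom of 2.75 between the 12-month libraries and 2.89 between the 24-month libraries, and by 17.8 to 28.3 between libraries of different ages. Within each age the libraries thus differed by more than counting noise, so they were kept as separate libraries. Levels are given as CPM, the counts of a gene per 1000000 counts of its library after TMM scaling, which corrects library sizes for differences in composition.

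The sex composition of the ages differed. The transcript that shuts down 1 X chromosome of female cells, Xist, stood at 0.286 and 0.448 CPM at 12 months and at 775 and 833 CPM at 24 months. The Y-linked gene Ddx3y was at 129.8 and 133 CPM at 12 months and at 40.5 and 38.1 CPM at 24 months. The 12-month libraries carried almost no Xist, while the 24-month libraries carried transcripts of both kinds. Age and sex composition cannot be told apart in any autosomal difference described here.

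Cardiac fibroblasts are the cells that make and remodel the collagen-rich matrix of the heart. They also sense injury and inflammation, and they signal to muscle, vessel and immune cells through secreted factors. With age, fibroblasts of many tissues are known for changes in inflammatory signalling, matrix output, oxidative defence and proliferation, and cells that have stopped dividing can secrete cytokines, growth factors and proteases. Interferon signalling induces antiviral and antigen-presenting genes through STAT and IRF transcription factors that bind interferon-stimulated response elements in promoters. NRF2, a transcription factor released from degradation by electrophiles and oxidants, induces detoxifying and glutathione-making enzymes through antioxidant response elements.

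Promoter stretches of some genes of these 2 programs are shown first. The interferon-response genes rose and the NRF2-target genes fell as groups in the comparison described below. Each line gives a stretch of promoter upstream of the annotated start site, from RefSeq (GRCm38.p6), read 5′ to 3′ on the strand of the gene. Capitals mark the matches to GAAANNGAA, the core of the interferon-stimulated response element, or to its reverse complement, and overlapping matches run together.
Isg15, chr4:156200851-156200921 (minus strand): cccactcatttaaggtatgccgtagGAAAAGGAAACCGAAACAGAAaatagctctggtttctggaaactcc
Oas3, chr5:120777695-120777759 (minus strand): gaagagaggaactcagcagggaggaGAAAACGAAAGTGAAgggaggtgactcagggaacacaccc
Bst2, chr8:71537563-71537627 (minus strand): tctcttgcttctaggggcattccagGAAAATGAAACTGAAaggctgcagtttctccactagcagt
Gbp3, chr3:142559975-142560039 (plus strand): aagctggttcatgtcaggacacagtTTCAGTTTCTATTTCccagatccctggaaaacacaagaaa
Ifit1, chr19:34640755-34640838 (plus strand): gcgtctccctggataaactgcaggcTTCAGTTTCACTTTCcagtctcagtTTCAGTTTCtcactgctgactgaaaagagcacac
Igtp, chr11:58199497-58199555 (plus strand): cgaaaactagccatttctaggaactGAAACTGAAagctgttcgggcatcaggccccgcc

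In the next 3 promoters, which belong to NRF2-target genes that fell, capitals mark the match to TGACNNNGC, the core of the antioxidant response element, or to its reverse complement.
Gclm, chr3:122245398-122245456 (plus strand): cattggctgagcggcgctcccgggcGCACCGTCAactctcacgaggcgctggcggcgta
Txnrd1, chr10:82859089-82859147 (plus strand): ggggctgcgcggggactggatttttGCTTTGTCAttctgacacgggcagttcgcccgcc
Prdx1, chr4:116685441-116685499 (plus strand): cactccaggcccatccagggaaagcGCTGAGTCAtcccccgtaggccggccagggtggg

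Both motifs were searched on both strands over the 250 bases before and 50 bases after the start site in the 11004 tested autosomal genes with a RefSeq promoter. A gene was counted when any of its RefSeq promoters held a match. GAAANNGAA was found in 8.69% of all these genes and in 26 of the 37 interferon-response genes with a promoter (70.3%). Among genes at least 2-fold higher at 24 months it was found in 22.8%, among all genes called higher in 13.3%, among genes called lower in 8.75%, and among genes at least 2-fold lower in 6 of 42 (14.3%). TGACNNNGC was found in 16.9% of all these genes and in 8 of the 25 NRF2-target genes with a promoter (32%). It was found in 16.2% of genes called lower and 18.3% of genes called higher. Among genes at least 2-fold lower it was found in 3 of 42 (7.14%), and among those at least 2-fold higher in 15%. A match is a description of letters in the window and was not tested as a binding site.

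Across the 15895 autosomal genes, 2971 (18.7%) differed between 24 and 12 months at an adjusted p under 0.05 in edgeR's quasi-likelihood test with Benjamini-Hochberg adjustment. Of these, 1698 (10.7%) were higher at 24 months and 1273 (8.01%) were lower. These counts were 1087 and 647 without the second 12-month library, and 1214 and 753 without the second 24-month library. Most of the changes were small. A total of 2263 called genes changed by less than 1.5-fold, 415 by 1.5-fold to 2-fold and 293 by 2-fold or more, and the median absolute log2 fold change of the called genes was 0.33. The larger changes were mostly gains, with 224 genes at least 2-fold higher (1.41% of those tested) against 69 at least 2-fold lower (0.434%). At 4-fold or more, 44 genes were higher and 16 lower. Over all autosomal genes the median log2 fold change was -0.0015, with 5% of genes below -0.58 and 5% above 0.78.

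The libraries of both ages did not overlap for 2970 of the 2971 called genes, beside 55.8% of all autosomal genes tested. The filter on low counts required about 10 counts in a library of median size, which came to 0.475 CPM, in at least 2 of the 8 libraries. Retnlb, Wfdc1 and Tmem169 lay just inside it, each with 0.476 CPM in the second-highest library. Tshr, Dgkg and Cacna1s lay just outside, each with 0.475 CPM.

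**Figure D1:**
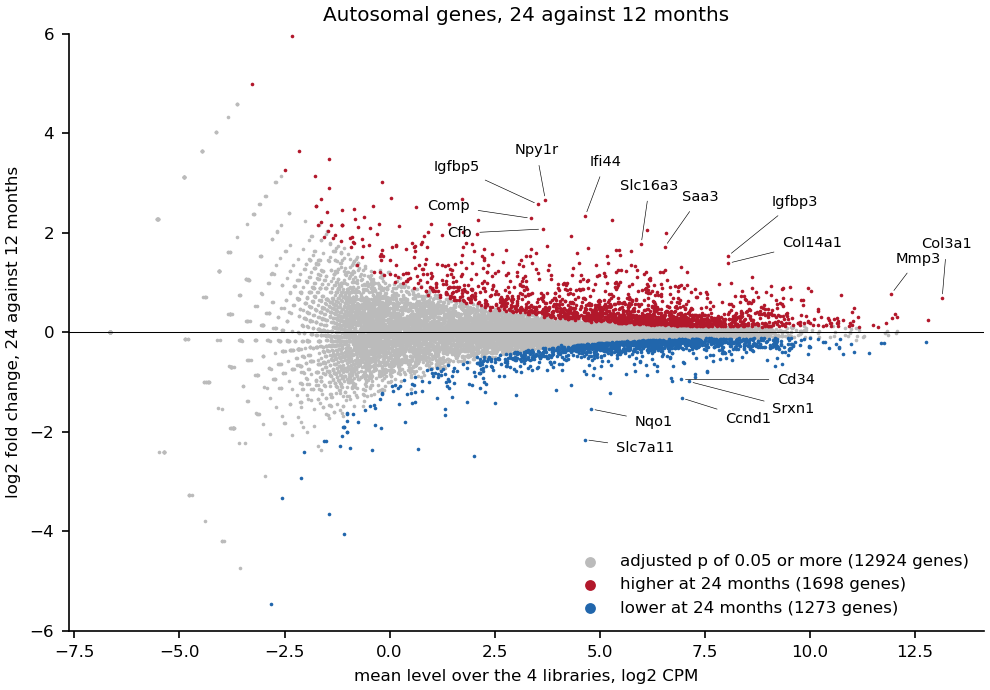
Log2 fold change at 24 against 12 months (vertical axis) against the mean level over the 4 libraries in log2 CPM (horizontal axis), 1 point per autosomal gene tested. The 1698 genes called higher and the 1273 called lower are coloured and the 12924 others are grey, and most of the coloured points lie within 2-fold of no change.

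Gene lists for pathways and cell types were compared with these shares by their counts and medians. The plot of the pathway lists shows the share of members called in each direction. Interferon-response, antigen-presentation, complement, glycolysis, hypoxia and collagen-processing genes stood at the top with mostly higher members. Ribosomal-protein and NRF2-target genes stood at the bottom with mostly lower members, next to oxidative-phosphorylation genes, of which 22 of 44 were lower.

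**Figure D2:**
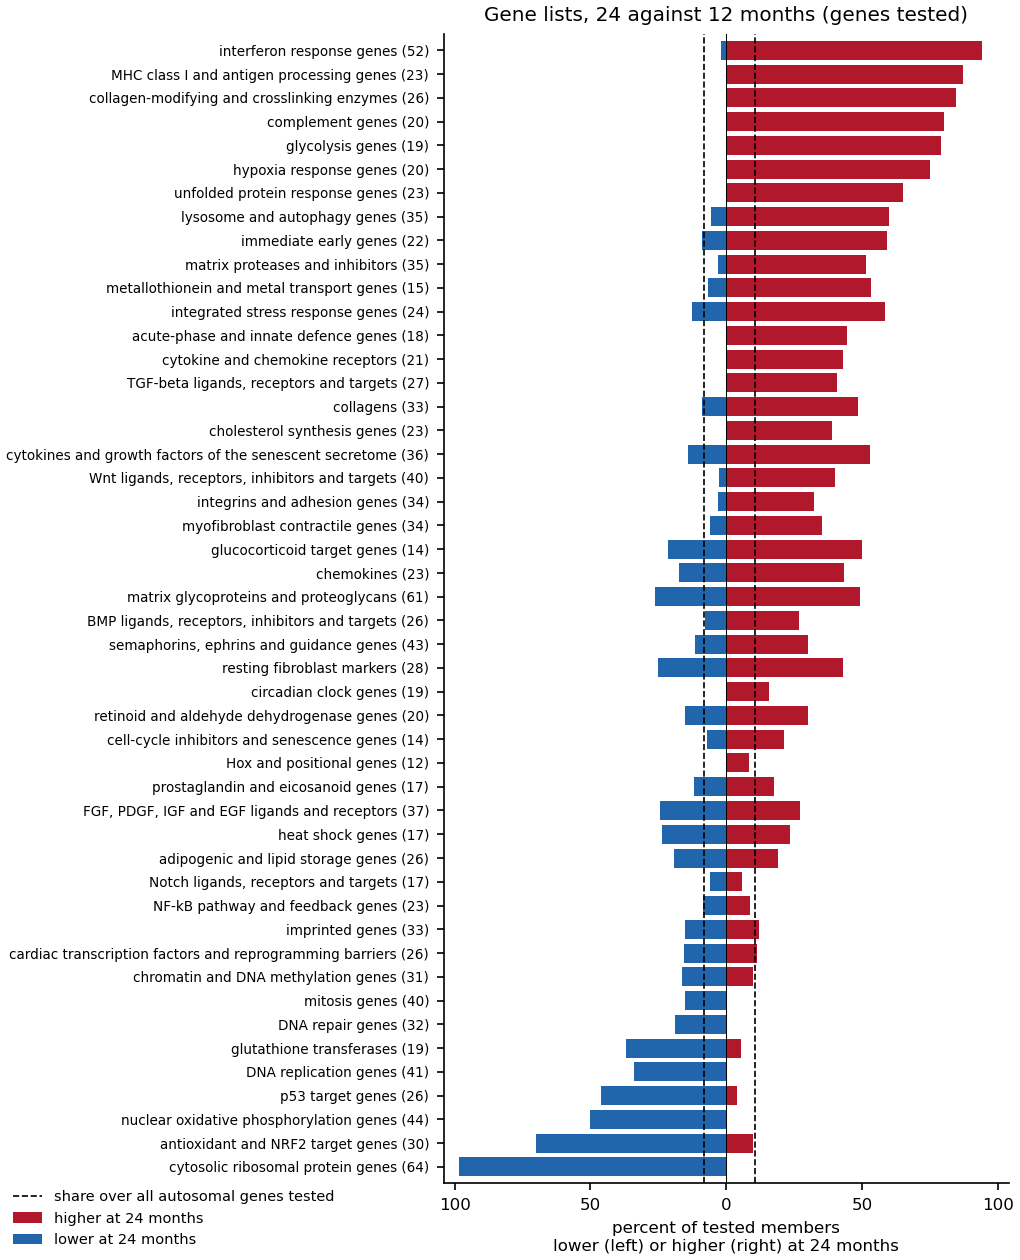
Share of tested members (horizontal axis, percent) that were higher (right) or lower (left) at 24 than at 12 months, for the 48 pathway lists with at least 10 tested members, whose number stands in brackets. Dashed lines mark the shares over all autosomal genes tested, 10.7% higher and 8.01% lower.

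Interferon-response genes rose as a list. Of 52 tested members, 49 rose, 1 fell and 2 did not pass the test, with a median log2 fold change of 0.78 beside -0.0015 over all autosomal genes. A total of 14 members rose at least 2-fold. The list held antiviral effectors, guanylate-binding proteins and GTPases, sensors and transcription factors, and risers were found in each of these groups.

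Ifi44, an interferon-induced antiviral protein gene, had 6.02 and 10.4 CPM at 12 months against 43.4 and 41.1 CPM at 24 months. Both 24-month libraries lay well above both 12-month libraries, and the 12-month pair itself was unequal (log2 fold change 2.34 ± 0.13 (SE), adjusted p = 3.0e-14, edgeR's quasi-likelihood test with Benjamini-Hochberg adjustment, as for every adjusted p given here). Isg15, which encodes a ubiquitin-like protein that is joined to other proteins, had 24.9 and 28.5 CPM at 12 months against 64.6 and 63.5 CPM at 24 months (log2 fold change 1.26 ± 0.07 (SE), adjusted p = 5.3e-14). Irf7, the transcription factor that amplifies type I interferon production, had 28.6 and 32.2 CPM at 12 months against 75.7 and 79.5 CPM at 24 months (log2 fold change 1.35 ± 0.07 (SE), adjusted p = 1.4e-14). The libraries of Isg15 and of Irf7 lay close within each age, and the ages did not overlap for any of the 3 genes. Zbp1, a sensor of Z-form nucleic acids, had 39.9 and 42.1 CPM at 12 months against 94.4 and 96.1 CPM at 24 months (log2 fold change 1.21 ± 0.06 (SE), adjusted p = 6.1e-15).

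The oligoadenylate synthetases, which make the activator of RNase L, rose together. Oas2 had 19.4 and 21.1 CPM at 12 months against 54.8 and 52.2 CPM at 24 months (log2 fold change 1.40), while Oas3 and Oas1g were at low levels and changed by 1.36 and 2.25. Oas1g has near-identical neighbours in its cluster, so its share of reads is uncertain. Bst2, which tethers budding viruses to the cell, rose from 93.9 and 91.2 CPM to 173 and 182 CPM (log2 fold change 0.94 ± 0.06 (SE), adjusted p = 1.0e-13). Smaller gains were measured for Stat2, a signal carrier of interferon receptors, at 0.64 on the log2 scale, and for Ifitm3, which blocks viral entry, at 0.35. The single member that fell was Ifi27, with 60.6 and 66.6 CPM at 12 months against 34.8 and 36.8 CPM at 24 months (log2 fold change -0.83 ± 0.07 (SE), adjusted p = 4.2e-10). Its relative on the same chromosome, Ifi27l2a, rose from 23.1 and 17.5 CPM to 62.6 and 64.8 CPM (log2 fold change 1.66 ± 0.09 (SE), adjusted p = 8.9e-15).

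Genes of MHC class I and antigen processing followed the same direction, with 20 of 23 tested members higher, 3 not passing the test and a median log2 fold change of 0.52. The classical class I heavy chain gene H2-K1 had 258 and 237 CPM at 12 months against 379 and 438 CPM at 24 months (log2 fold change 0.72 ± 0.05 (SE), adjusted p = 6.7e-12). B2m, the light chain shared by class I molecules, had 782 and 705 CPM at 12 months against 1033 and 1146 CPM at 24 months (log2 fold change 0.55 ± 0.05 (SE), adjusted p = 2.3e-10). Tapasin, encoded by Tapbp, loads peptides onto class I molecules and rose from 115 and 101 CPM to 156 and 177 CPM. The immunoproteasome subunit gene Psmb8 rose by 0.58 on the log2 scale, and Nlrc5, the transactivator of class I genes, by 0.46. Class I genes are similar in sequence, so reads may be divided between members such as H2-Q6 and H2-Q7. The call of H2-Q6 was lost without the second 24-month library (adjusted p = 0.056).

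Among cytokine and chemokine receptors, 9 of 21 tested members rose and 12 did not pass the test. Ifnar2, a chain of the type I interferon receptor, rose by 0.41 on the log2 scale (adjusted p = 3.6e-06), while its partner Ifnar1 had 107 and 107 CPM at 12 months against 107 and 121 CPM at 24 months (log2 fold change 0.09 ± 0.05 (SE), adjusted p = 0.28). Ifnar1 passed without the first 24-month library (adjusted p = 0.047). Il4ra, the receptor chain for interleukins 4 and 13, had 268 and 258 CPM at 12 months against 443 and 423 CPM at 24 months (log2 fold change 0.72 ± 0.04 (SE), adjusted p = 7.1e-14).

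**Figure D3:**
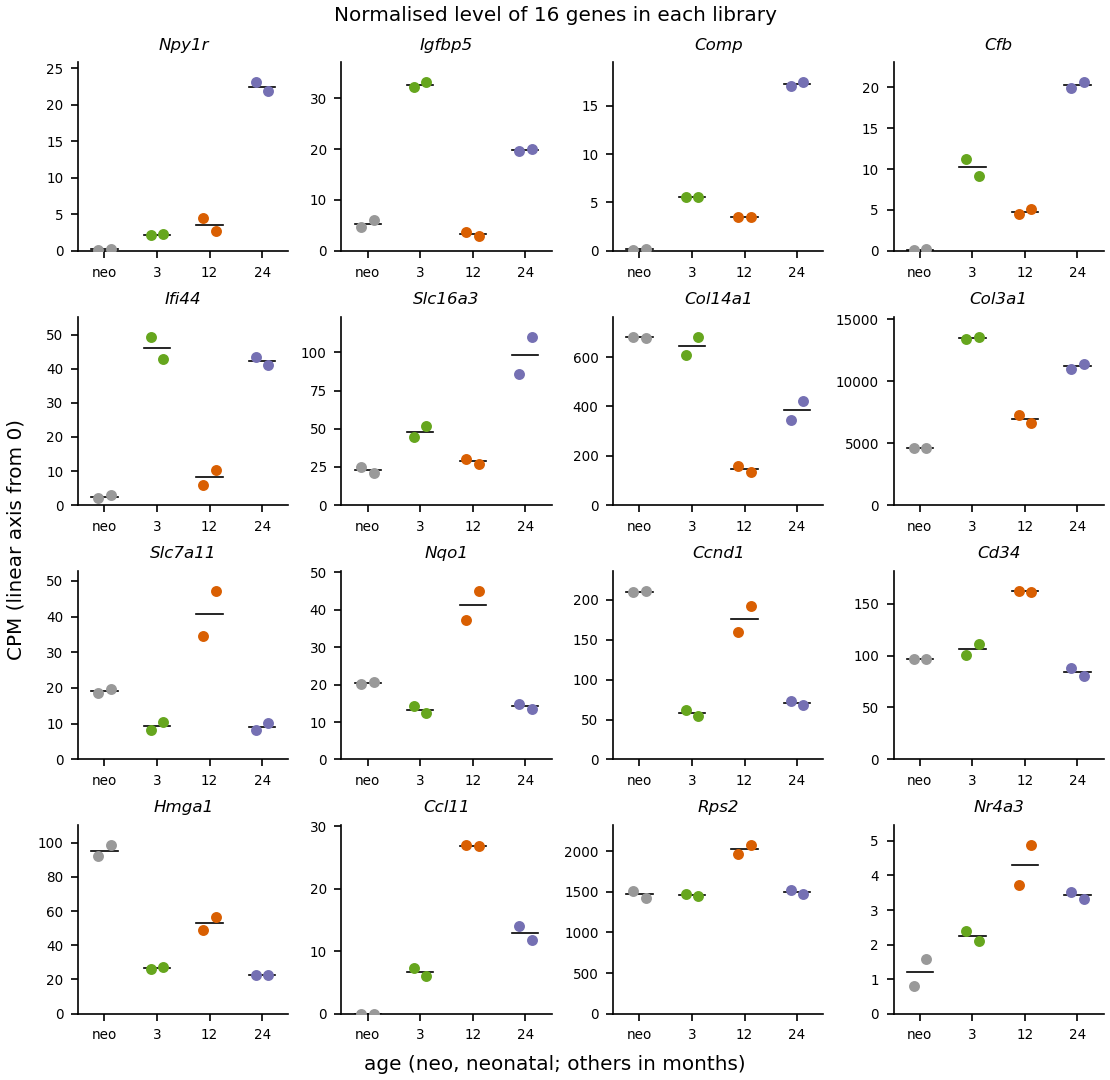
Level in CPM (vertical axes, linear from 0, 1 panel per gene) of 16 genes in each of the 8 libraries, ordered by age (horizontal axis), 1 point per library with a line at the mean of each age. The 24-month points of Npy1r, Comp and Cfb lie above those of 3 and 12 months, while those of Slc7a11, Nqo1 and Ccnd1 lie below the 12-month points and near those of 3 months.

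Complement genes rose in 16 of 20 tested members, with 4 not passing the test and a median log2 fold change of 0.68. Cfb, the factor B protease of the alternative pathway, had 4.47 and 5.07 CPM at 12 months against 19.8 and 20.6 CPM at 24 months, so the ages did not overlap (log2 fold change 2.08 ± 0.14 (SE), adjusted p = 1.0e-12). C3, the central component on which all complement pathways converge, had 1385 and 1191 CPM at 12 months against 2067 and 2258 CPM at 24 months (log2 fold change 0.75 ± 0.05 (SE), adjusted p = 2.0e-12). The classical-pathway proteases C1s1 and C1ra rose by 0.98 and 0.89 on the log2 scale and C4b by 0.87. The inhibitor gene Serping1, which blocks the C1 proteases, rose as well and had 481 and 430.4 CPM at 12 months against 814 and 846 CPM at 24 months (log2 fold change 0.87 ± 0.05 (SE), adjusted p = 3.2e-14).

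Acute-phase and innate-defence genes included 8 higher members of 18 tested, and the other 10 did not pass the test. Saa3, a serum amyloid A gene, had 50.8 and 36.9 CPM at 12 months against 131 and 157 CPM at 24 months (log2 fold change 1.72 ± 0.09 (SE), adjusted p = 6.8e-15). Hp, which encodes the haemoglobin scavenger haptoglobin, had 35.8 and 29.3 CPM at 12 months against 83.5 and 78.6 CPM at 24 months, and Lbp, the lipopolysaccharide-binding protein gene, rose by 1.17 on the log2 scale. Lcn2, which binds bacterial siderophores, had 22.2 and 16.1 CPM at 12 months against 25.6 and 35.6 CPM at 24 months (log2 fold change 0.68 ± 0.13 (SE), adjusted p = 1.5e-04). The pattern-recognition gene Ptx3 and the receptor gene Tlr4, which were in the same list, had log2 fold changes of 0.04 and 0.08 and did not pass (adjusted p = 0.58 and 0.42).

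The macrophage markers stood beside these immune genes. The summed level of 9 macrophage markers was 235.3 and 222 CPM at 12 months against 219 and 210.0 CPM at 24 months. Within that list C1qa and C1qb, subunits of C1q, rose by 0.68 and 0.69, Lyz2, the lysozyme gene of myeloid cells, changed by -0.19 on the log2 scale, and 6 members did not pass. The call of Lyz2 was lost without the first 12-month (adjusted p = 0.15) or the second 24-month library (adjusted p = 0.2). The part of macrophages in the immune differences was not tested. In bulk libraries such as these, fewer cells of a type and less RNA per cell cannot be told apart.

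Chemokines moved in both directions, with 10 of 23 tested members higher, 4 lower and 9 not passing the test. Cxcl12, the ligand of CXCR4 that retains blood-forming and immune cells, had 748 and 635 CPM at 12 months against 1221 and 1344 CPM at 24 months (log2 fold change 0.89 ± 0.05 (SE), adjusted p = 6.6e-14). Ccl8, a ligand that draws monocytes, had 5.16 and 4.68 CPM at 12 months against 14.6 and 16.9 CPM at 24 months (log2 fold change 1.68 ± 0.14 (SE), adjusted p = 1.8e-10), and Cxcl14 rose by 0.97 on the log2 scale. The genes that fell were Ccl11, which encodes the eosinophil attractant eotaxin, the neutrophil attractant gene Cxcl1, and the monocyte attractant genes Ccl2 and Ccl7. Ccl11 had 27.0 and 26.8 CPM at 12 months against 14.0 and 11.8 CPM at 24 months (log2 fold change -1.06 ± 0.11 (SE), adjusted p = 2.4e-08), and Cxcl1 had 243 and 255 CPM at 12 months against 171 and 164 CPM at 24 months (log2 fold change -0.57 ± 0.06 (SE), adjusted p = 1.9e-08). Ccl2 and Ccl7 changed by -0.16 and -0.12 on the log2 scale. The call of Ccl7 was lost when any 1 of the 4 libraries was left out (highest adjusted p = 0.23), and that of Ccl2 without the first 24-month library (adjusted p = 0.054). The median of the list was 0.32 on the log2 scale and 0.023 when the first 12-month library was left out.

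In the list of cytokines and growth factors of the senescent secretome, 19 of 36 tested members rose, 5 fell and 12 did not pass the test. The single largest value in each direction belonged to a binding protein of insulin-like growth factors. Igfbp5 had 3.72 and 2.99 CPM at 12 months against 19.6 and 20.0 CPM at 24 months (log2 fold change 2.57 ± 0.14 (SE), adjusted p = 1.8e-14). Igfbp3 had 145 and 128 CPM at 12 months against 361 and 429 CPM at 24 months (log2 fold change 1.54 ± 0.07 (SE), adjusted p = 1.0e-16). Igfbp2 moved the other way, with 7.45 and 6.17 CPM at 12 months against 0.938 and 1.47 CPM at 24 months (log2 fold change -2.49 ± 0.27 (SE), adjusted p = 4.0e-08), and Igfbp6 fell as well, from 32.3 and 33.5 CPM to 18.8 and 18.1 CPM. The ages did not overlap for any of these 4 genes.

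Il6, a cytokine widely used to describe the secretome, had 119 and 122 CPM at 12 months against 171 and 166 CPM at 24 months (log2 fold change 0.49 ± 0.05 (SE), adjusted p = 5.6e-08). Vegfa, an endothelial growth factor gene, rose by 0.61 on the log2 scale, Il33, an alarmin gene, by 0.87, and Spp1, which encodes osteopontin, by 0.69. Gdf15, a stress-induced member of the TGF-beta family, fell from 12.9 and 13.4 CPM to 6.71 and 8.93 CPM (log2 fold change -0.76 ± 0.13 (SE), adjusted p = 4.4e-05). Without the second 12-month library the lower members numbered 3.

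Genes of NF-kB signalling and its feedback were called in shares near those over all autosomal genes. Of 23 tested members 2 rose, 2 fell and 19 did not pass, and the median log2 fold change was -0.021. The shares were 8.7% in each direction, beside 10.7% higher and 8.01% lower over all autosomal genes tested. The adhesion-molecule genes Vcam1 and Icam1 rose by 0.45 and 0.36, and the inhibitor gene Nfkbia and the subunit gene Nfkb2 changed by -0.26 and -0.20. Without the first 24-month library Nfkbia and Nfkb2 did not pass (adjusted p = 0.2 and 0.093), nor without the first 12-month library (adjusted p = 0.14 for both), which also raised the higher members to 4. Without the second 24-month library 1 member fell. A difference in change between this list and the interferon and complement lists was not tested.

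NRF2-target and antioxidant genes fell in 21 of 30 tested members, with 3 higher, 6 not passing the test and a median log2 fold change of -0.37. The steepest decline was that of Slc7a11, the cystine importer that feeds glutathione synthesis, with 34.4 and 47.2 CPM at 12 months against 8.21 and 10.2 CPM at 24 months (log2 fold change -2.16 ± 0.13 (SE), adjusted p = 1.0e-13). Nqo1, a quinone reductase and standard readout of NRF2, had 37.3 and 45.0 CPM at 12 months against 14.8 and 13.6 CPM at 24 months (log2 fold change -1.54 ± 0.10 (SE), adjusted p = 4.9e-13). Srxn1, which reactivates oxidised peroxiredoxins, had 181 and 191 CPM at 12 months against 91.3 and 95.8 CPM at 24 months (log2 fold change -0.99 ± 0.05 (SE), adjusted p = 3.1e-15). All 3 genes were lower in both 24-month libraries than in either 12-month library.

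The enzymes that make glutathione fell alongside, with Gclm at 188 and 209 CPM at 12 months against 111 and 111 CPM at 24 months and Gclc at 94.4 and 96.4 CPM at 12 months against 62.3 and 60.9 CPM at 24 months. Thioredoxin reductase, encoded by Txnrd1, had 679.9 and 741 CPM at 12 months against 452 and 441 CPM at 24 months (log2 fold change -0.67 ± 0.04 (SE), adjusted p = 6.3e-13), and Prdx1, whose promoter is shown above, changed by -0.25 on the log2 scale (adjusted p = 4.4e-05). Enzymes of the pentose-phosphate pathway, which supplies NADPH, were part of the decline, with Taldo1 at -0.89, Pgd at -0.55 and Tkt at -0.25 on the log2 scale. Haem oxygenase, encoded by Hmox1, fell from 786 and 881 CPM to 590.3 and 619 CPM, and the ferritin chain genes Ftl1 and Fth1 changed by -0.43 and -0.39.

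Nfe2l2, which encodes NRF2, had 245 and 261 CPM at 12 months against 251 and 264 CPM at 24 months (log2 fold change 0.02 ± 0.04 (SE), adjusted p = 0.79), and its libraries overlapped. The 3 members that rose were the secreted or endoplasmic antioxidant enzymes Gpx3, Sod3 and Gpx7. Gpx3, the extracellular glutathione peroxidase, had 547 and 479 CPM at 12 months against 960.5 and 957 CPM at 24 months (log2 fold change 0.90 ± 0.05 (SE), adjusted p = 3.3e-15).

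Glutathione transferases, which join glutathione to electrophiles, held 7 lower members and 1 higher member of 19 tested, and 11 did not pass the test. Gsta3 had 137 and 143 CPM at 12 months against 69.2 and 72.3 CPM at 24 months (log2 fold change -0.98 ± 0.05 (SE), adjusted p = 2.0e-14), and Gstm1 had 236 and 235 CPM at 12 months against 137 and 138 CPM at 24 months (log2 fold change -0.77 ± 0.05 (SE), adjusted p = 6.3e-13). The member that rose was Gstt1, by 0.46 on the log2 scale. It did not pass without the second 12-month library (adjusted p = 0.12). These families have close paralogs, so reads may be divided between copies. The list median was -0.0075, and the members that did not pass lay on both sides of 0.

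Cytosolic ribosomal protein genes fell in 63 of 64 tested members, with a median log2 fold change of -0.27. Individual changes were small and similar in size. Rps2 had 1969 and 2071 CPM at 12 months against 1521 and 1472 CPM at 24 months (log2 fold change -0.43 ± 0.04 (SE), adjusted p = 5.9e-10), and Rplp0, a protein of the ribosomal stalk, changed by -0.32 on the log2 scale. The list took 2.84% and 3.01% of all counts at 12 months and 2.35% and 2.31% at 24 months. Protein-coding genes with under 1000 bases of exons had a median log2 fold change of -0.13, and those with 4000 or more had 0.0081. The ribosomal protein genes were not removed from these classes. Over 13116 protein-coding genes the Spearman correlation of exonic length with log2 fold change was 0.06. Pseudogenes described as ribosomal protein copies, processed or unprocessed, fell in 19 of 82 tested, with a median of -0.37. The rest of them did not pass, and reads of such copies can stem from the parent genes.

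Nuclear genes of oxidative phosphorylation fell in 22 of 44 tested members and 22 did not pass, and the median log2 fold change was -0.17. The complex I gene Ndufa10 had 84.7 and 81.5 CPM at 12 months against 65.3 and 64.7 CPM at 24 months (log2 fold change -0.35 ± 0.05 (SE), adjusted p = 1.3e-05), and the ATP synthase gene Atp5b had 827 and 871 CPM at 12 months against 722 and 682 CPM at 24 months (log2 fold change -0.27 ± 0.04 (SE), adjusted p = 5.0e-06). The count of 22 was 12 with DESeq2, 9 without the second 12-month library, and 14 and 10 without the first and the second 24-month library.

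Glycolysis genes moved the opposite way, with 15 of 19 tested members higher, 4 not passing the test and a median log2 fold change of 0.37. Slc16a3, the lactate exporter MCT4, had 30.5 and 27.0 CPM at 12 months against 85.9 and 110.2 CPM at 24 months (log2 fold change 1.77 ± 0.09 (SE), adjusted p = 8.9e-15). The kinase gene Pfkfb3, which makes the activator of phosphofructokinase, had 29.1 and 30.0 CPM at 12 months against 56.1 and 63.9 CPM at 24 months, and Pfkl, a phosphofructokinase gene, rose by 0.77 on the log2 scale. Pdk1, which holds pyruvate back from the mitochondria, had 32.0 and 27.1 CPM at 12 months against 51.9 and 61.5 CPM at 24 months (log2 fold change 0.94 ± 0.08 (SE), adjusted p = 7.2e-10). Ldha, which makes lactate, rose by 0.31 and Slc2a1, the glucose importer GLUT1, by 0.53.

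Hypoxia-response genes rose in 15 of 20 tested members and 5 did not pass, and the median log2 fold change was 0.51. Bnip3, a mitophagy receptor gene, had 54.8 and 51.9 CPM at 12 months against 89.2 and 116 CPM at 24 months (log2 fold change 0.95 ± 0.08 (SE), adjusted p = 2.0e-10), and Hif1a, the oxygen-regulated transcription factor gene, had 324 and 303 CPM at 12 months against 479.9 and 502 CPM at 24 months (log2 fold change 0.65 ± 0.04 (SE), adjusted p = 9.1e-13). Ndufa4l2, a mitochondrial protein known as a target of HIF-1, had 32.0 and 22.8 CPM at 12 months against 93.0 and 132 CPM at 24 months (log2 fold change 2.05 ± 0.12 (SE), adjusted p = 5.4e-14). The second 24-month library lay above the first for Bnip3, P4ha2 and Vegfa, and without it 9 members rose and the median was 0.28. Oxygen and cell density in culture are not given in the labels, and their part was not tested.

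**Figure D4:**
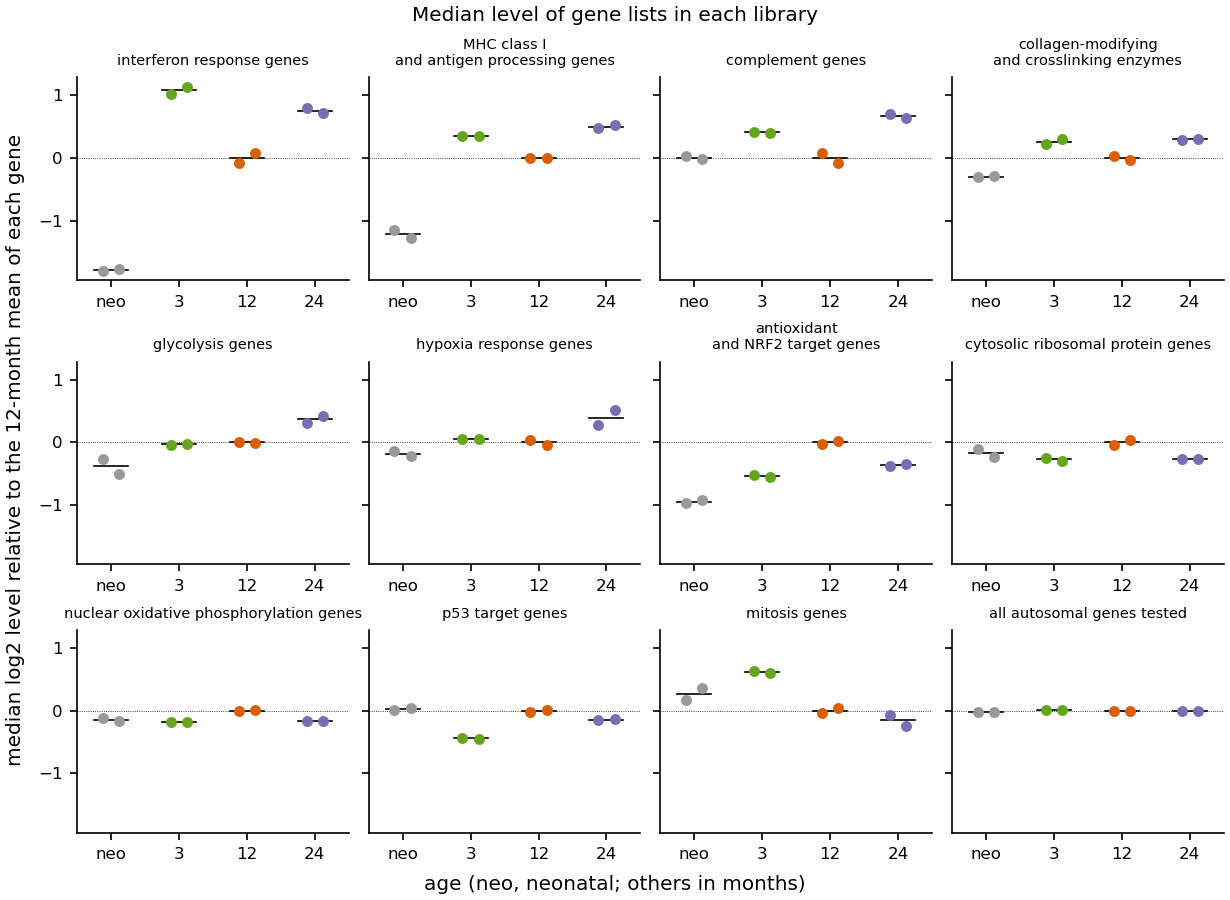
Median over the members of 11 gene lists, and over all autosomal genes tested, of the log2 level relative to each gene's 12-month mean (vertical axis, log2 of CPM with 0.5 added) in each of the 8 libraries (horizontal axis, by age). Both 24-month points of the interferon list lie at 0.79 and 0.72, those of the ribosomal protein list at -0.27 and -0.27, and those of all genes near 0.

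Stress programs of the secretory pathway rose by small amounts. Of 23 tested genes of the unfolded protein response, which responds to misfolded proteins in the endoplasmic reticulum, 15 rose and 8 did not pass, and the median log2 fold change was 0.16. The chaperone gene Hspa5 had 1364 and 1432 CPM at 12 months against 1520.1 and 1524 CPM at 24 months (log2 fold change 0.12 ± 0.04 (SE), adjusted p = 0.021). It did not pass without the first 12-month library or either 24-month library (highest adjusted p = 0.2). Genes of the integrated stress response, which is carried by ATF4, rose in 14 of 24 tested members and fell in 3. Ddit4, an inhibitor of mTOR signalling, had 43.3 and 44.2 CPM at 12 months against 72.8 and 82.2 CPM at 24 months (log2 fold change 0.83 ± 0.06 (SE), adjusted p = 4.1e-11), and Atf4 itself rose by 0.21 on the log2 scale. The members that fell were Slc7a11, also a target of NRF2, the serine-synthesis gene Psat1 at -0.60 and Atf5 at -0.23. These counts depended on single libraries. Without the second 12-month or the second 24-month library, 9 and 8 members of the first list rose, and 8 and 7 of the second.

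Lysosome and autophagy genes rose in 21 of 35 tested members, fell in 2 and did not pass in 12. Npc2, which moves cholesterol out of lysosomes, had 322 and 317 CPM at 12 months against 424 and 453 CPM at 24 months (log2 fold change 0.46 ± 0.05 (SE), adjusted p = 6.6e-09). The autophagy receptor gene Sqstm1, also a target of NRF2, fell from 517 and 517 CPM to 395 and 442 CPM (log2 fold change -0.31 ± 0.05 (SE), adjusted p = 1.1e-05). Cholesterol synthesis genes rose in 9 of 23 tested members and 14 did not pass. Sqle, the squalene epoxidase gene, rose by 0.30 on the log2 scale.

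Matrix genes rose more often than they fell. Among collagens, 16 of 33 tested members were higher, 3 lower and 14 did not pass, and the median log2 fold change was 0.23. Col14a1, a fibril-associated collagen gene, had 160.2 and 134 CPM at 12 months against 347 and 421 CPM at 24 months (log2 fold change 1.39 ± 0.07 (SE), adjusted p = 3.2e-15). The fibrillar collagen gene Col3a1 had 7251 and 6649 CPM at 12 months against 10998 and 11416 CPM at 24 months (log2 fold change 0.69 ± 0.04 (SE), adjusted p = 1.1e-14). The ages did not overlap for either gene. The main collagen genes of scar, Col1a1 and Col1a2, rose by 0.29 and 0.31 on the log2 scale, with Col1a1 at 3727 and 3458 CPM at 12 months against 4285 and 4503 CPM at 24 months (adjusted p = 1.3e-06). The members that fell were the cartilage-type collagen genes Col2a1 and Col11a1, and Col15a1, a basement-membrane-zone collagen gene, at 66.4 and 81.3 CPM at 12 months against 48.6 and 51.0 CPM at 24 months (log2 fold change -0.57 ± 0.07 (SE), adjusted p = 2.5e-07). Without the second 12-month library the lower members numbered 1. Col2a1 and Col11a1 were the members that then did not pass (adjusted p = 0.19 and 0.39).

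Enzymes that modify and crosslink collagen rose in 22 of 26 tested members and 4 did not pass, and the median log2 fold change was 0.30. The prolyl hydroxylase gene P4ha1, needed for a stable triple helix, had 509.7 and 501 CPM at 12 months against 776 and 847 CPM at 24 months (log2 fold change 0.68 ± 0.04 (SE), adjusted p = 6.6e-13). Plod2, the lysyl hydroxylase that sets the type of crosslink, had 459 and 458 CPM at 12 months against 701 and 733 CPM at 24 months (log2 fold change 0.64 ± 0.04 (SE), adjusted p = 2.5e-13). Lox and Loxl2, the oxidases that start crosslinking, rose by 0.31 and 0.67 on the log2 scale. Some of these genes, P4ha1 and P4ha2 among them, are also in the hypoxia list.

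Glycoproteins and proteoglycans of the matrix were divided, with 30 of 61 tested members higher, 16 lower and 15 not passing. Comp, a thrombospondin-family protein that bridges collagen fibrils, had 3.50 and 3.53 CPM at 12 months against 17.0 and 17.4 CPM at 24 months (log2 fold change 2.29 ± 0.15 (SE), adjusted p = 5.1e-13). Spon1 had 55.9 and 49.1 CPM at 12 months against 122 and 119 CPM at 24 months (log2 fold change 1.20 ± 0.06 (SE), adjusted p = 2.3e-15), and the small leucine-rich proteoglycan genes Lum, Ogn and Dcn rose by 0.73, 0.68 and 0.48 on the log2 scale. Fibronectin, encoded by Fn1, had 3706 and 3599 CPM at 12 months against 4646 and 4758 CPM at 24 months (log2 fold change 0.36 ± 0.03 (SE), adjusted p = 7.6e-10). Laminin genes were on the other side: Lama2, Lama4, Lama5, Lamb1 and Lamc1 fell, Lama2 with 592 and 619.9 CPM at 12 months against 403 and 418 CPM at 24 months (log2 fold change -0.56 ± 0.04 (SE), adjusted p = 6.6e-12). Postn, the periostin gene of activated fibroblasts, had 232 and 251 CPM at 12 months against 165 and 187 CPM at 24 months (log2 fold change -0.46 ± 0.05 (SE), adjusted p = 3.3e-08), and the elastin gene Eln changed by -0.26. Without the first 12-month library Eln and Lama5 did not pass (adjusted p = 0.37 and 0.16), and without the first 24-month library Eln and Lama4 did not (adjusted p = 0.057 and 0.079).

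Matrix proteases and their inhibitors rose in 18 of 35 tested members, fell in 1 and did not pass in 16. Mmp3, stromelysin 1, had 2999 and 2803 CPM at 12 months against 4881 and 5035 CPM at 24 months (log2 fold change 0.77 ± 0.04 (SE), adjusted p = 2.0e-15). Timp3, an inhibitor of metalloproteinases that binds to the matrix, had 290.4 and 261 CPM at 12 months against 487 and 533 CPM at 24 months (log2 fold change 0.89 ± 0.06 (SE), adjusted p = 4.4e-13). The member that fell was Adamts8, which was near 1 CPM in all 4 libraries. It did not pass without the first library of either age (highest adjusted p = 0.26).

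Of 27 tested TGF-beta ligands, receptors and targets, 11 rose and 16 did not pass, and the median log2 fold change was 0.12. The ligand genes Tgfb1, Tgfb2 and Tgfb3 rose by 0.20, 0.28 and 0.43, the receptor genes Tgfbr1 and Tgfbr2 by 0.32 and 0.20, and the target gene Ccn2, connective tissue growth factor, by 0.19. Tgfb1 and Tgfbr2 did not pass without the second 24-month library (adjusted p = 0.32 and 0.083), and Tgfb1 and Tgfb2 did not without the second 12-month library (adjusted p = 0.26 and 0.36). BMP-pathway genes rose in 7 of 26 tested members and fell in 2, or in 1 with the filter at 10 CPM. These shares, 26.9% higher and 7.69% lower, stood beside 10.7% and 8.01% over all autosomal genes tested. The ligand gene Bmp4 rose by 0.51, and the antagonist gene Nog and the target gene Id1 changed by -0.98 and -0.32.

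Wnt-pathway genes rose in 16 of 40 tested members, fell in 1 and did not pass in 23. Secreted antagonists were among the risers, with Sfrp1 at 538 and 496 CPM at 12 months against 778 and 762 CPM at 24 months (log2 fold change 0.58 ± 0.05 (SE), adjusted p = 7.4e-11) and Sfrp2 and Dkk3 at log2 fold changes of 0.95 and 1.29. The ligand gene Wnt11 was the member that fell, at -0.56 on the log2 scale. It did not pass without the second 12-month library (adjusted p = 0.092), and 2 members of the list fell without the first 12-month or the second 24-month library. Notch-pathway genes rose in 1 and fell in 1 of 17 tested members, while 2 rose without either 3-month library and none fell without the second 12-month or the first 24-month library. Growth-factor ligands and receptors of the FGF, PDGF, IGF and EGF families rose in 10 and fell in 9 of 37, and the 9 were 3 without the second 12-month library. Fgf7 rose by 0.65 and Fgf10, a ligand of the same receptor, fell from 5.04 and 5.52 CPM to 2.81 and 2.23 CPM (log2 fold change -1.07 ± 0.22 (SE), adjusted p = 7.2e-04). The Notch shares, 5.88% in each direction, stood beside 10.7% higher and 8.01% lower over all autosomal genes tested.

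Contractile genes of myofibroblasts, the stress-fibre-bearing form of activated fibroblasts, rose in 12 of 34 tested members, fell in 2 and did not pass in 20, and 1 fell when any 1 of the 4 libraries was left out. Itga11, a collagen receptor gene of myofibroblasts, had 12.0 and 13.1 CPM at 12 months against 30.9 and 35.5 CPM at 24 months (log2 fold change 1.40 ± 0.11 (SE), adjusted p = 2.7e-11). Acta2, which encodes smooth muscle actin and is the usual marker of the state, had 1087 and 1138 CPM at 12 months against 1227 and 1221 CPM at 24 months (log2 fold change 0.14 ± 0.04 (SE), adjusted p = 0.015), a small difference beside that of Itga11. Acta2 did not pass without the first 12-month library or either 24-month library (highest adjusted p = 0.14).

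Resting-fibroblast markers were split, with 12 of 28 tested members higher and 7 lower. Cd34, a surface marker of resting stromal cells, had 162 and 162 CPM at 12 months against 87.6 and 80.3 CPM at 24 months (log2 fold change -0.95 ± 0.05 (SE), adjusted p = 3.3e-14). Pi16, a marker of a progenitor-like fibroblast state, had 15.1 and 13.3 CPM at 12 months against 10.3 and 10.1 CPM at 24 months (log2 fold change -0.47 ± 0.12 (SE), adjusted p = 0.0056), while Ly6a, which encodes Sca-1, rose by 0.40. Pi16 did not pass without the first 12-month library (adjusted p = 0.083). Cardiac transcription factors and genes known as barriers to reprogramming rose in 3 and fell in 4 of 26 tested members. These shares, 11.5% and 15.4%, stood beside 10.7% and 8.01% over all autosomal genes tested. Gata4 had 108 and 106 CPM at 12 months against 110.4 and 105 CPM at 24 months (log2 fold change 0.01 ± 0.05 (SE), adjusted p = 0.91), Mef2c had 18.3 and 18.8 CPM at 12 months against 20.4 and 19.6 CPM at 24 months (log2 fold change 0.11 ± 0.09 (SE), adjusted p = 0.45), and Tbx5 had 1.15 and 1.14 CPM at 12 months against 2.02 and 2.33 CPM at 24 months (log2 fold change 0.92 ± 0.32 (SE), adjusted p = 0.041). Tbx5 did not pass when any 1 of the 4 libraries compared was left out (highest adjusted p = 0.19). The 3 higher members numbered 1 with DESeq2, 1 without the first library of either age and 0 without the second 24-month library, which also left 2 lower.

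Some proliferation genes fell by small amounts. Of 41 tested DNA replication genes 14 fell and 27 did not pass, and of 40 mitosis genes 6 fell and 34 did not pass. The lower shares, 34.1% and 15%, stood beside 8.01% over all autosomal genes tested. Rrm2, a ribonucleotide reductase subunit gene, had 105 and 106 CPM at 12 months against 81.5 and 73.7 CPM at 24 months (log2 fold change -0.44 ± 0.06 (SE), adjusted p = 1.2e-06), and Mki67, which encodes the Ki-67 antigen of cycling cells, had 162 and 176 CPM at 12 months against 156 and 138 CPM at 24 months (log2 fold change -0.20 ± 0.06 (SE), adjusted p = 0.01). Mki67 did not pass without the second library of either age (adjusted p = 0.23 and 0.28). Both counts depended on the libraries and the scaling. Replication genes that fell numbered 8 with DESeq2, 6 without the second 12-month library and 3 without the second 24-month library. Mitosis genes that fell numbered 13 with upper-quartile scaling, 2 with DESeq2, 13 without the first 24-month library, and 1 without the second library of either age.

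Ccnd1, the cyclin of the early G1 phase, had 160.1 and 192 CPM at 12 months against 72.7 and 68.5 CPM at 24 months (log2 fold change -1.32 ± 0.06 (SE), adjusted p = 2.3e-15). The chromatin protein gene Hmga1, which is high in growing cells, had 49.2 and 56.7 CPM at 12 months against 22.8 and 22.4 CPM at 24 months (log2 fold change -1.23 ± 0.08 (SE), adjusted p = 2.4e-13). Targets of p53, the list in which Ccnd1 was placed, fell in 12 of 26 tested members and rose in 1, with a median log2 fold change of -0.18. Perp had 10.8 and 11.8 CPM at 12 months against 4.17 and 5.37 CPM at 24 months (log2 fold change -1.25 ± 0.16 (SE), adjusted p = 7.5e-07), and the p53 feedback gene Mdm2 fell from 257 and 283 CPM to 231 and 241 CPM. Trp53, which encodes p53, had 127 and 127 CPM at 12 months against 112 and 111 CPM at 24 months (log2 fold change -0.19 ± 0.05 (SE), adjusted p = 0.012). Trp53 did not pass without either 12-month library or the second 24-month library (highest adjusted p = 0.084), nor Mdm2 without the second 12-month library (adjusted p = 0.16).

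Among 14 cell-cycle inhibitors and senescence genes, 3 rose, 1 fell and 10 did not pass, and the 1 that fell was Trp53, given above. These shares, 21.4% higher and 7.14% lower, stood beside 10.7% and 8.01% over all autosomal genes tested. The CDK inhibitor gene Cdkn1b rose by 0.35, Cdkn2c by 0.33, and Glb1, the lysosomal enzyme behind senescence-associated beta-galactosidase staining, by 0.24 on the log2 scale. The markers used most often did not pass the test. Cdkn2a, which encodes p16 and p19ARF, had 1.66 and 2.14 CPM at 12 months against 2.63 and 3.18 CPM at 24 months (log2 fold change 0.60 ± 0.28 (SE), adjusted p = 0.15). Cdkn1a, which encodes p21, had 561 and 588 CPM at 12 months against 531 and 551 CPM at 24 months (log2 fold change -0.09 ± 0.04 (SE), adjusted p = 0.16). Cdkn2b and Lmnb1, the lamin gene lost in senescent cells, had log2 fold changes of 0.14 and -0.09 (adjusted p = 0.54 and 0.44). The standard error was small for Cdkn1a and wide for Cdkn2a, whose level was low.

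Immediate early genes, which respond within minutes to growth factors and stress, rose in 13 of 22 tested members, fell in 2 and did not pass in 7. Fos had 37.6 and 42.9 CPM at 12 months against 67.7 and 60.2 CPM at 24 months (log2 fold change 0.66 ± 0.07 (SE), adjusted p = 3.3e-08), and Egr1 had 386 and 396 CPM at 12 months against 519.7 and 495 CPM at 24 months (log2 fold change 0.38 ± 0.04 (SE), adjusted p = 2.7e-08). Fosl1 and Klf4 were the members that fell, at -0.71 and -0.28 on the log2 scale. The NR4A orphan receptors, early genes of the same kind, did not pass the test with all libraries. Nr4a1 had 32.7 and 39.6 CPM at 12 months against 49.4 and 36.9 CPM at 24 months (log2 fold change 0.25 ± 0.10 (SE), adjusted p = 0.074), Nr4a2 had 3.04 and 3.08 CPM at 12 months against 2.53 and 2.61 CPM at 24 months (log2 fold change -0.25 ± 0.22 (SE), adjusted p = 0.5), and Nr4a3 had 3.72 and 4.88 CPM at 12 months against 3.52 and 3.33 CPM at 24 months (log2 fold change -0.34 ± 0.22 (SE), adjusted p = 0.34). Nr4a1 passed without the second 12-month library (log2 fold change 0.40, adjusted p = 0.028), without the second 24-month library (0.45, adjusted p = 0.00079) and when genes with low counts were kept in (0.27, adjusted p = 0.0077), and was at 0.02 without the first 24-month library (adjusted p = 0.92).

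By the size of their change, the 15 leading genes that rose included several already given and others from no list. Npy1r (chr8:66697192-66706792 in GRCm38), the Y1 receptor for neuropeptide Y, was first. It had 4.53 and 2.69 CPM at 12 months against 23.1 and 21.9 CPM at 24 months (log2 fold change 2.66 ± 0.16 (SE), adjusted p = 1.3e-13). Gucy1a1 (chr3:82092427-82145789), a subunit of the nitric oxide receptor guanylate cyclase, had 14.8 and 12.5 CPM at 12 months against 57.8 and 72.2 CPM at 24 months (log2 fold change 2.26 ± 0.09 (SE), adjusted p = 8.2e-17). Cyp7b1 (chr3:18071950-18243338), the oxysterol hydroxylase, had 8.82 and 7.71 CPM at 12 months against 32.1 and 30.9 CPM at 24 months (log2 fold change 1.93 ± 0.11 (SE), adjusted p = 3.3e-14). Cpxm2, a carboxypeptidase-like gene, rose from 7.22 and 5.32 CPM to 21.1 and 20.2 CPM.

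The remaining leading risers were Gvin-ps7, a pseudogene of a large interferon-inducible GTPase, at 1.70, and Olfr1033, an annotated olfactory receptor gene, at 1.66 on the log2 scale. The first shares sequence with related genes, and the second can share reads with transcripts that overlap it, so both are uncertain. In the downward direction Cyp1a1, the classic target of the aryl hydrocarbon receptor, had 8.71 and 7.71 CPM at 12 months against 3.57 and 2.57 CPM at 24 months (log2 fold change -1.42 ± 0.18 (SE), adjusted p = 7.4e-07). Aqp1, a water channel gene, had 21.3 and 21.7 CPM at 12 months against 8.44 and 10.7 CPM at 24 months (log2 fold change -1.17 ± 0.11 (SE), adjusted p = 2.9e-09). Blvrb, a biliverdin reductase gene, changed by -0.92, and Slc40a1, the iron exporter ferroportin, by -0.88 on the log2 scale. For every gene in this and the preceding paragraph the libraries of both ages did not overlap, as the choice of the leading genes required.

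The late-life step was then set against the adult step from 3 to 12 months. Both steps share the 12-month libraries, which enter with opposite signs, so an unusual value at 12 months moves both steps in opposite directions. In the adult step 28.4% of the autosomal genes differed, 12.9% higher and 15.5% lower at 12 months. The test of the difference between the steps, the late-life log2 fold change minus the adult one, was passed by 3971 genes (25%), with 2152 above 0 (13.5%) and 1819 below (11.4%). Between 24 and 3 months directly, 18.1% of the genes differed, 8.7% higher and 9.44% lower at 24 months. Of the X-linked genes, 116 of 548 (21.2%) differed between 24 and 12 months, 71 higher (13%) and 45 lower (8.21%).

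Interferon-response genes had been lower at 12 than at 3 months in 51 of 52 members, with a median of -1.20 on the log2 scale, and the step difference passed above 0 in 51. Irf7 was at 94.8 and 89.4 CPM at 3 months, fell to 28.6 and 32.2 CPM at 12 months and stood at 75.7 and 79.5 CPM at 24 months, and its step difference was 2.95 ± 0.13 (SE), adjusted p = 1.3e-16. Between 24 and 3 months directly, 34 of 52 members were lower, 2 were higher and the median was -0.29. Igfbp5 was at 32.2 and 33.1 CPM at 3 months, and its step difference was 5.86 ± 0.25 (SE), adjusted p = 7.0e-17.

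NRF2-target genes had risen in 25 of 30 members between 3 and 12 months, with a median of 0.55, and 13 were higher and 2 lower at 24 than at 3 months. Nqo1 was at 14.3 and 12.3 CPM at 3 months, with a log2 fold change from 3 to 24 months of 0.09 ± 0.11. Hmox1 was at 386 and 380.0 CPM at 3 months with a log2 fold change from 3 to 24 months of 0.66 ± 0.05. Ribosomal protein genes were higher at 12 than at 3 months in 62 of 64 members, and between 24 and 3 months the median difference was -0.0011, with 3 higher and 2 lower. For oxidative phosphorylation the median between 24 and 3 months was 0.0028.

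Other lists stood above the 3-month level. Glycolysis genes were higher at 24 than at 3 months in 17 of 19 members (median 0.53), and hypoxia-response genes in 15 of 20 (median 0.36). Slc16a3 was at 44.5 and 51.5 CPM at 3 months, with a log2 fold change from 3 to 24 months of 1.03 ± 0.09. Complement genes were higher than at 3 months in 11 of 20 and lower in 3, and Cfb was at 11.3 and 9.20 CPM at 3 months. Npy1r and Comp were at 2.16 and 2.30 CPM and 5.53 and 5.56 CPM at 3 months, below both 24-month libraries.

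Collagens were lower at 12 than at 3 months in 22 of 33 members, and lower at 24 than at 3 months in 17. Col3a1 was at 13354 and 13575 CPM at 3 months, with a log2 fold change from 3 to 24 months of -0.26 ± 0.04. Mitosis genes were lower at 24 than at 3 months in 40 of 40 members (median -0.79), and at 12 than at 3 months in 40 of 40 as well (median -0.63). Targets of p53 were higher than at 3 months in 18 of 26 members, and Cdkn1a was at 351 and 347 CPM at 3 months. Among the NR4A receptors, the step difference passed for Nr4a3 (-1.28 ± 0.40 (SE), adjusted p = 0.017), which was at 2.38 and 2.11 CPM at 3 months.

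**Figure D5:**
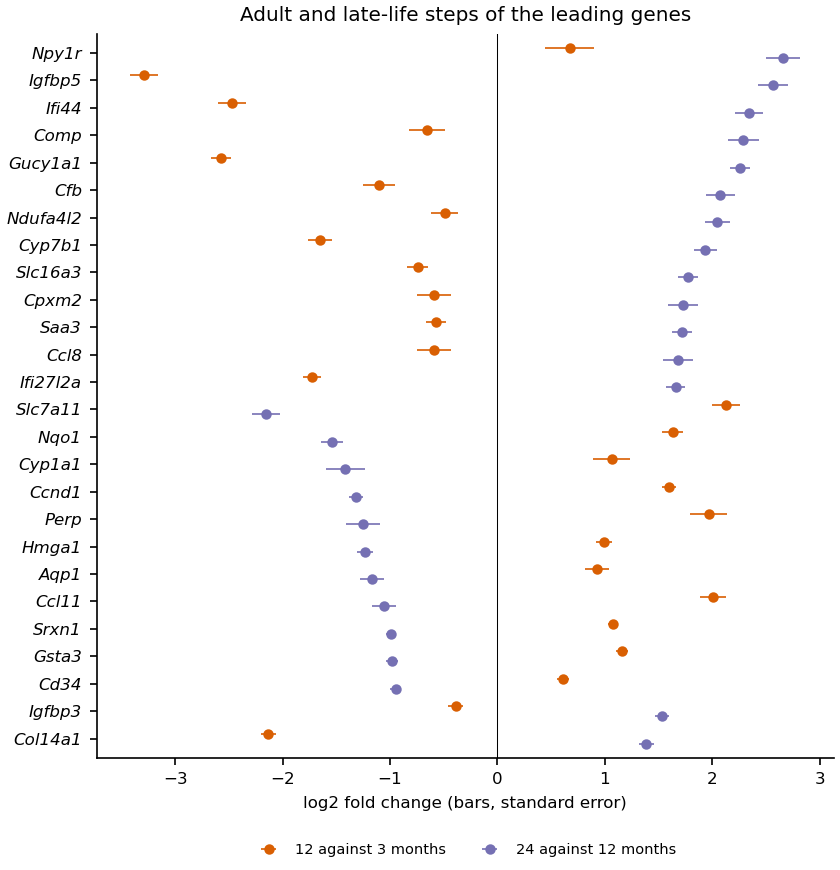
Log2 fold change from 3 to 12 months and from 12 to 24 months (horizontal axis) for 26 genes (vertical axis), with bars of 1 SE. The steps point in opposite directions for Ifi44, Gucy1a1, Slc7a11 and Nqo1 and in the same direction for Npy1r, and both steps share the 12-month libraries.

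Markers of fibroblasts were abundant in all 4 libraries, with a summed level of 14620 and 14240 CPM at 12 months against 16410 and 16840 CPM at 24 months over 8 genes. Other cell types were present at low levels. Endothelial markers summed to 698 and 682 CPM at 12 months against 744 and 720.1 CPM at 24 months, most of it from Eng, which fibroblasts also express. Cardiomyocyte markers summed to 35.8 and 25.8 CPM against 25.1 and 25.5 CPM, with Myl7 at 0 in all 4 libraries. Pericyte and smooth muscle markers summed to 113 and 102 CPM against 115 and 121 CPM, and within them Mcam rose by 1.38 and Cspg4 fell from 5.39 and 5.92 CPM to 2.77 and 3.66 CPM.

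Mast cell markers summed to 3.50 and 3.23 CPM at 12 months against 9.01 and 12.3 CPM at 24 months. Nearly all of this was Kit, the stem cell factor receptor gene, while Mcpt4 and Fcer1a were at 0 in all 4 libraries. Cpa3, the remaining marker, had 0.0573 and 0.0498 CPM at 12 months against 0.328 and 0.285 CPM at 24 months. Cpa3 did not pass the test. Lymphocyte, adipocyte, erythroid and neutrophil markers each summed to under 1 CPM in every 12-month and 24-month library, and epicardial markers to 1.29 to 2.81 CPM. The part of other cell types in the differences between the ages was not tested.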

How the data were processed

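RNA was measured in 8 libraries of primary mouse cardiac fibroblasts cultured for 3 days. Per the labels' protocols, ribosomal RNA was depleted and a stranded kit was used, while the labels also call the molecule polyA RNA. Per the submitters' processing notes, Trimmomatic 0.36, featureCounts of Subread 1.5.1, SAMtools and the mm10 build were used. Neither aligner nor annotation release nor strand mode is given in the sources used here.

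What the authors deposited were raw read counts per gene, 1 column per library, which the authors gave beside FPKM values and exonic lengths. The authors' FPKM equalled counts per kilobase of exon, scaled to library size, within 0.005 and were not tested. The table holds 56691 genes, of which 2639 lack a symbol (0.0728% to 0.205% of the counts per library). Totals ran from 17283764 to 22311330 counts per library, and no interval for counting error was needed because the replicated test includes it.

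Counts were scaled by TMM and filtered with edgeR 4.0.16 (filterByExpr, minimum count 10, minimum total 15). All 8 libraries, with 1 coefficient per age, were fitted with edgeR's quasi-likelihood test, and Benjamini-Hochberg adjustment ran over the 16466 genes tested, in R 4.3.3. A gene was called at an adjusted p under 0.05, and the standard error is the log2 fold change divided by the square root of F. Levels are counts per 1000000 of the TMM-scaled library size (CPM). DESeq2 1.42.0 and limma 3.58.1 (voom) were alternatives. The scripts were tested on simulated data.

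Named genes were the 15 largest rises and the 15 largest falls among called autosomal genes whose mean reached 5 CPM, whose ages did not overlap and whose symbol was neither predicted nor clone-based. They further comprised the members of smallest p in each list, 4 at most, and a fixed set of 21 genes of senescence, matrix, NR4A and cardiac factors. Other genes, among them members that moved against their list and further examples of a role, were chosen after their values were seen. Some genes that the rule names are not reported here. The members and the gene lists were chosen with earlier results of these data known. Replicate numbers did not pair the samples. Positions of genes follow GENCODE M21 (GRCm38). Promoters follow RefSeq (GRCm38.p6), matched by Ensembl gene ID, or by symbol where the ID gave no promoter. The positions in the deposited table were not used, since 1472 of 52073 shared gene IDs had the same position in M21.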

Additional observations from a re-analysis of the deposited data

How the results depend on the processing

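Among the called genes, none changed sign under any of the 19 alternatives. Of the 2971 calls 46 passed when a change of 2-fold was the null hypothesis (40 higher, 6 lower), and 1674 to 2962 passed under the other alternatives. Higher genes numbered 1468 with upper-quartile scaling, 1815 with DESeq2's size factors and 1332 with DESeq2, and lower genes 1608, 1156 and 706. Leaving out 1 library gave 1087 to 1672 higher and 647 to 1257 lower genes, with 753 lower without the second 24-month library. Genes at least 2-fold higher numbered 172 to 222 without 1 library and 88 with the filter at 10 CPM. Those at least 2-fold lower numbered 54 to 69 without 1 library, 30 with DESeq2 and 18 with the filter at 10 CPM. The step difference, 2152 above and 1819 below 0, was 2090 and 1843 with limma's voom, and 2127 and 1794 with 6 libraries.

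The replicate number as a block gave 1612 higher and 1186 lower genes, and 2059 and 1698 for the step difference. Deviations of same-numbered 12-month and 24-month libraries had a correlation of -0.0038, so the numbers do not pair the samples.

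Of 193 called genes named in the text, 26 lost the call without at least 1 library, 15 of them also under another alternative, and 164 with the 2-fold null. The other 167 kept the call in every other fit that tested them. Signs turned for genes that were not called. With upper-quartile scaling Nfe2l2 was at -0.0032 and Gata4 at -0.014. Without 1 library Nfe2l2 ran from -0.022 to 0.070, Gata4 from -0.026 to 0.048, Ifnar1 from -0.00021 to 0.17 and Lmnb1 from -0.19 to 0.013.

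With 2 libraries per age, counts of small changes depend on single libraries. Most list counts that moved by over 1.5 times without 1 library stand beside the list.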

Other observations

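Genes of retinoid metabolism, which makes and clears the morphogen retinoic acid, rose in 6 of 20 tested members, fell in 3 and did not pass the test in 11. Dhrs3, a retinaldehyde reductase gene, had 55.8 and 54.5 CPM at 12 months against 131 and 134 CPM at 24 months (log2 fold change 1.26 ± 0.05 (SE), adjusted p = 1.0e-16, edgeR's quasi-likelihood test with Benjamini-Hochberg adjustment). Rarb, a retinoic acid receptor gene that is itself induced by retinoic acid, had 3.44 and 3.63 CPM at 12 months against 8.77 and 7.93 CPM at 24 months. Aldh1a2, which makes retinoic acid, rose by 0.48 on the log2 scale, while the related gene Aldh1a1 had 692 and 713 CPM at 12 months against 502 and 476 CPM at 24 months (log2 fold change -0.52 ± 0.04 (SE), adjusted p = 2.0e-11). Metal-handling genes rose in 8 of 15 tested members and fell in 1, which was Slc40a1. The metallothionein genes Mt1 and Mt2, which bind zinc and copper, both rose, Mt1 from 85.1 and 83.2 CPM to 136 and 163 CPM and Mt2 from 90.0 and 76.4 CPM to 145 and 177 CPM.

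The counts in this paragraph stand beside 10.7% higher and 8.01% lower over all autosomal genes tested. For imprinted genes the shares were 12.1% higher and 15.2% lower. Glucocorticoid targets were divided, with 7 of 14 tested members higher and 3 lower. The lower members included Fkbp5 and Zbtb16, which are widely used readouts of the glucocorticoid receptor, at -0.35 and -0.65 on the log2 scale. Zbtb16 did not pass without either 12-month library or the first 24-month library (highest adjusted p = 0.13). Of 17 prostaglandin genes 3 rose and 2 fell, with Ptgs2, which encodes cyclooxygenase 2, at 57.0 and 62.5 CPM at 12 months against 87.8 and 78.3 CPM at 24 months and the prostacyclin receptor gene Ptgir at 66.8 and 69.8 CPM at 12 months against 42.4 and 45.5 CPM at 24 months. Integrins and adhesion genes rose in 11 of 34 tested members and fell in 1, or in 0 without the second library of either age and 2 without the first 12-month or the second 3-month library. Axon-guidance genes rose in 13 of 43 and fell in 5 (3 without the second 12-month library), and 2 class 3 semaphorins went opposite ways, Sema3d from 26.8 and 28.6 CPM to 54.0 and 57.3 CPM and Sema3c from 99.6 and 109 CPM to 58.5 and 63.5 CPM. Imprinted genes rose in 4 of 33 and fell in 5 (3 and 2 without the first 12-month and the first 24-month library), with Peg10 at 552 and 524 CPM at 12 months against 817 and 733 CPM at 24 months and the maternally expressed RNA genes Meg3 and Rian at -0.24 and -0.31. Meg3 did not pass without the first library of either age (highest adjusted p = 0.32).

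Adipogenic and lipid-storage genes rose in 5 of 26 and fell in 5 (1 to 3 without 1 of the 4 libraries), with Apoe at 0.77. Heat shock genes rose in 4 of 17 (2 without the first 24-month library) and fell in 4, chromatin genes rose in 3 of 31 and fell in 5 (3 without the second library of either age), circadian genes rose in 3 of 19, and of 12 Hox and positional genes Hoxd8 alone rose. DNA repair genes fell in 6 of 32, a count that was 11 with upper-quartile scaling and 3 with DESeq2 or without the first 24-month library. Of 33 replication-dependent histone genes 6 were tested, and of these H2bc4 and H1f2 rose by 0.55 and 0.39. The list took 0.0061% and 0.0058% of all counts at 12 months and 0.0080% and 0.0076% at 24 months. Over all autosomal genes tested, 10.7% were higher and 8.01% lower. Beside these shares, chromatin genes had 9.68% higher and 16.1% lower. Circadian genes had 15.8% higher, and Hox and positional genes 8.33%.

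Among mitochondrial transcripts the ribosomal RNAs mt-Rnr1 and mt-Rnr2 changed by -0.36 and -0.12 on the log2 scale (adjusted p = 7.7e-06 and 0.039), and 13 other mitochondrial genes did not pass. Processed pseudogenes other than copies of ribosomal proteins fell in 34 of 752 tested and rose in 17. Over all autosomal genes tested, 8.01% fell and 10.7% rose.

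In the promoter windows the AP-1 site TGANTCA was found in 6.63% of the tested genes, in 8.29% of those called higher and 7.55% of those called lower, and in 12.6% of those at least 2-fold higher and 11.9% of those at least 2-fold lower. The NF-kB core GGGANTTTC was found in 1.18% of the tested genes and the NR4A half-site AAAGGTCA in 1.15%. The autosomal gene with the smallest p was Gm33228, a predicted gene chosen after its values were seen, with 41.0 and 35.3 CPM at 12 months against 153 and 153 CPM at 24 months (log2 fold change 2.00 ± 0.06 (SE), adjusted p = 2.8e-20).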
